A study of Rattus norvegicus with 9 samples.

Results

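The GABA-A receptor is the main inhibitory neurotransmitter receptor of the forebrain, and 7 of its subunit genes were followed here through RNA sequencing of rat cortical neurons. The members were taken by symbol from the deposited tables: Gabra2, Gabra3, Gabra4, Gabra5, Gabrb1, Gabrb2 and Gabrd. All 7 were found among the 22050 genes listed, and all 7 were among the 13693 genes with enough counts to test. The 9 libraries came from primary cortical cultures of Sprague Dawley rat embryos (embryonic day 19), in 3 groups of 3. In the group with OGD and Wnt3a plus Rspondin 1, cultures went through oxygen-glucose deprivation (OGD), a dish model of stroke, and received 100 ng/ml of the Wnt ligand Wnt3a and 50 ng/ml of Rspondin 1, a protein that makes cells more responsive to Wnt, with 24 h given as the length of treatment. In the OGD group, cultures spent 4.5 h in 1% oxygen in medium with neither glucose nor pyruvate and then went back to regular medium and normal oxygen. The control group was untreated. Hours and oxygen level are given for OGD alone only, and no source used here gives the time from OGD to harvest. Nor does any source say whether replicates came from separate cultures or animals, so the p-values rest on the spread between these libraries, part or all of which may be technical.

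GABA-A receptors are pentameric chloride channels in which alpha and beta subunits assemble with a gamma or a delta subunit. GABA binds between alpha and beta subunits, and benzodiazepines bind between certain alpha subunits and a gamma subunit. The alpha subunit steers the receptor to its place: receptors with alpha 2 or alpha 3 are found largely at synapses, while those with alpha 5, and in the forebrain those with alpha 4 and delta, lie mostly outside synapses and carry tonic inhibition. The beta subunit is needed for delivery of the receptor to the cell surface. In immature cortex, alpha 2, alpha 3 and alpha 5 are abundant and alpha 4 and delta come up later.

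The sequences shown are those upstream of the member that was not called after OGD (Gabrb1), of the other beta gene, which fell (Gabrb2), of the gene that fell most (Gabrd) and of its usual forebrain partner (Gabra4). They are RefSeq promoter windows of rat assembly GRCr8, from 200 bases before to 25 bases after the annotated start, 225 bases each. RefSeq windows were matched for 6 of the 7 members, and Gabra2 is named only. The Gabrb1 window lies at chr14:36902869-36903093 on the minus strand and the Gabrb2 window at chr10:27439593-27439817 on the plus strand, and capitals mark the runs of at least 10 bases that both hold.
Gabrb1: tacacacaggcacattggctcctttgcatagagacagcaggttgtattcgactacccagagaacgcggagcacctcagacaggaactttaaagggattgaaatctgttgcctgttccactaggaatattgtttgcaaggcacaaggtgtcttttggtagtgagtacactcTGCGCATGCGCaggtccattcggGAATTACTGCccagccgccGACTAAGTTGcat
Gabrb2: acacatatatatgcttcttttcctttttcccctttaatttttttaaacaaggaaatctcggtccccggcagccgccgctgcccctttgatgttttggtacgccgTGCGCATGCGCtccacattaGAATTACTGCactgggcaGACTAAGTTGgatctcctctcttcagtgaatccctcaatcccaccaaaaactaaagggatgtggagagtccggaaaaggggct
The longest shared run, of 11 bases, lay at -30 to -20 of Gabrb1 and at -96 to -86 of Gabrb2, and the other 2 followed it in the same order in both genes. It holds the palindrome gcgcatgcgc, known as a recognition sequence of the transcription factor NRF-1, which was found in 285 of 33469 rat promoters of 300 bases (0.852%). The Gabrd window lies at chr5:171252685-171252909 on the minus strand and the Gabra4 window at chr14:36944547-36944771 on the plus strand, and capitals mark the GC box gggcgg, searched on both strands.
Gabrd: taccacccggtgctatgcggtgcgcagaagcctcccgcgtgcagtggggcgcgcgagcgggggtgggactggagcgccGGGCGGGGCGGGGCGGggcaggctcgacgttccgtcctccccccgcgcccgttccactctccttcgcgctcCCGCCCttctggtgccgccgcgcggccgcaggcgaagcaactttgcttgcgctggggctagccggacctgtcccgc
Gabra4: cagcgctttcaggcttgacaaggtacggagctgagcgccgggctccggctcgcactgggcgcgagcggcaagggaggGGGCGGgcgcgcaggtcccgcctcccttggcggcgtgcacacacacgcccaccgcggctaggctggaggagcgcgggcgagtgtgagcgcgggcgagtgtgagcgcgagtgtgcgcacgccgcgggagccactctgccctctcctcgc
The Gabrd window held 4 GC boxes, of which 3 overlap by 1 base each, and the Gabra4 window held 1. Of all rat promoters, 33.1% held at least 1. GC content over 300 bases was 73.7% for Gabrd, 70.7% for Gabra4 and 76.3% for Gabra5, against 49.3% for Gabrb1, 44.0% for Gabrb2 and 39.3% for Gabra3, with a median of 51.7% over all promoters. Genes with GC-rich and with GC-poor promoters stood among those that fell. The motifs were chosen after the sequences had been seen, and a match of letters does not show that a factor binds.

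The libraries held 14285914 to 25048521 counts. The 12 neuron markers were detected in every library but moved with the groups: their summed level was 1475 to 1911 CPM (counts scaled to a common total) with OGD and Wnt3a plus Rspondin 1 and 1441 to 1961 CPM in OGD, against 7983 to 8421 CPM in control. The 10 astrocyte markers summed to 15223 to 16099 CPM with OGD and Wnt3a plus Rspondin 1 and 16061 to 17509 CPM in OGD, against 5357 to 5816 CPM in control. After OGD the libraries labelled cortical neurons thus carried less neuronal and more astrocyte RNA than controls. In bulk RNA, fewer cells of a type and less RNA per cell cannot be told apart. OGD replicate 1 stood apart on the second principal component of all genes, at 38.8, while the other 8 libraries lay between -13.9 and 10.5. Values without it are given where it matters.

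Untreated cultures expressed a receptor repertoire led by alpha 5. In FPKM, which counts fragments per kilobase of gene and scales them to the library total, Gabra5 averaged 63.8 ± 4.73 in control (SD, n = 3, as for all means that follow). Gabra3 at 24.8 ± 1.18 FPKM and Gabra2 at 24.4 ± 1.62 FPKM came next, and their libraries overlapped. Below them, with no overlap between neighbours, came Gabrb2 (17.1 ± 0.857 FPKM), Gabrb1 (8.52 ± 1.10 FPKM), Gabra4 (6.07 ± 0.412 FPKM) and Gabrd (4.88 ± 0.461 FPKM). The order after OGD was another. Gabra2 led at 14.1 ± 1.63 FPKM, followed by Gabrb1 at 9.92 ± 0.767 FPKM. The next 4, Gabra5, Gabra4, Gabra3 and Gabrb2, lay between 2.23 and 2.92 FPKM on average and overlapped one another, and Gabrd came last at 0.107 ± 0.0833 FPKM. With Wnt3a plus Rspondin 1 the order was the same as with OGD alone, and each of Gabra5, Gabra4, Gabra3 and Gabrb2 overlapped the next in the order.

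**Figure D1:**
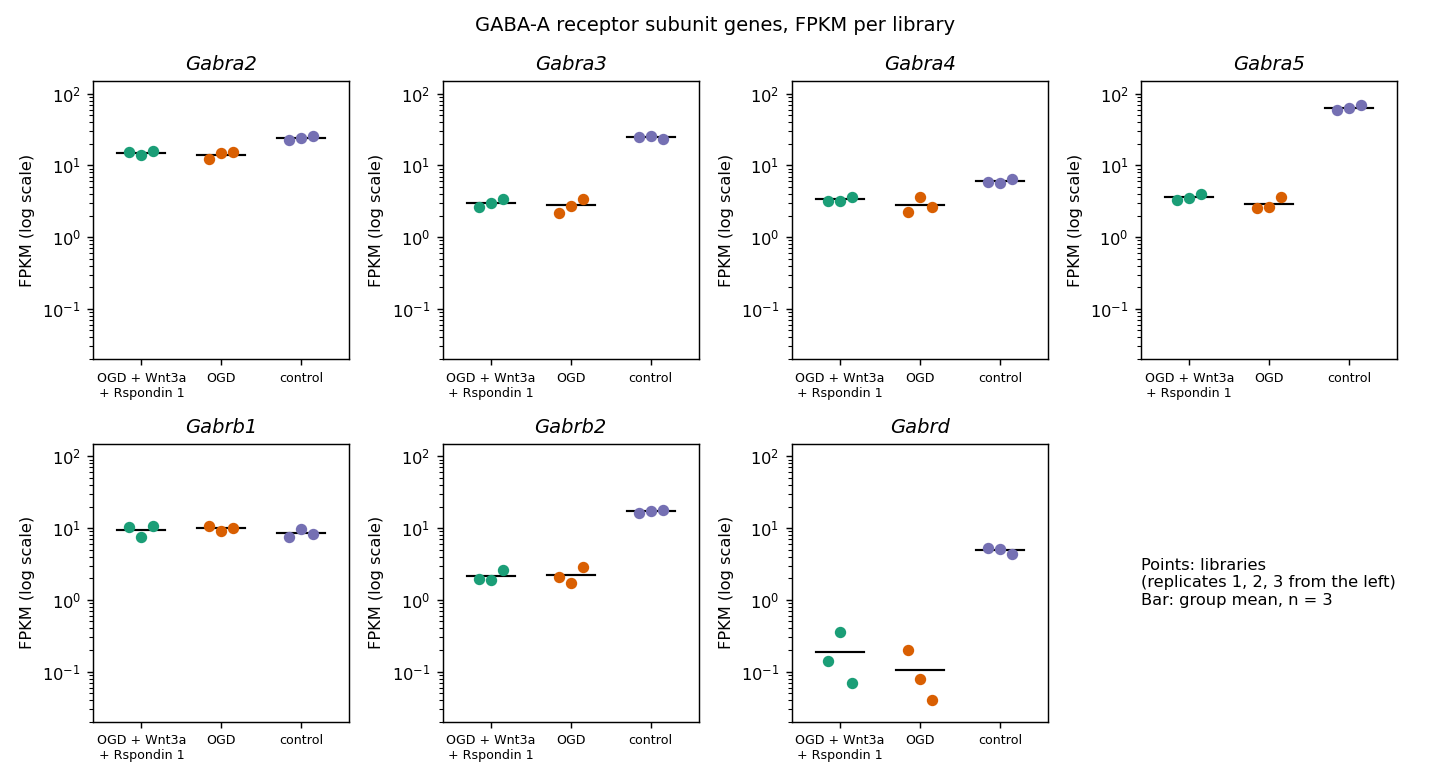
FPKM of the 7 subunit genes in each library on a log axis, by group, with the group mean as a bar (n = 3). Both OGD groups lie below control with no overlap in every panel but that of Gabrb1, where the groups overlap.

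OGD was set against untreated control to see which subunit genes changed with the insult. Of the 7 members, 6 fell and 1 did not pass the test (edgeR quasi-likelihood, Benjamini-Hochberg adjusted p under 0.05 over all tested genes). Of all tested genes, 36.8% were called lower and 73.1% were called in either direction, so calls were common across the whole table. The median log2 change was -3.04 over the members and 0.02 over all tested genes. In all 6 genes called, no OGD library reached the lowest control library, while 38.1% of tested genes were lower without overlap.

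Among the alpha subunits, Gabra5, which forms extrasynaptic receptors and is best known from hippocampus, fell most. It measured 2.53, 2.61 and 3.62 FPKM in OGD replicates 1 to 3, against 59.34, 63.29 and 68.75 FPKM in control. Its log2 change was -4.53 ± 0.15 (SE), which is 23.0-fold lower (adjusted p = 2.39e-10). Gabra3, a synaptic subunit of the young cortex, measured 2.17, 2.71 and 3.45 FPKM in OGD, against 25.12, 25.71 and 23.43 FPKM in control. It fell by 3.23 ± 0.15 on the log2 scale (adjusted p = 1.06e-09). The remaining alpha subunits fell far less. Gabra4, the usual partner of delta in the forebrain, measured 2.27, 3.57 and 2.67 FPKM in OGD, against 5.9, 5.77 and 6.54 FPKM in control, a log2 change of -1.17 ± 0.14 (adjusted p = 7.04e-06). Gabra2, a synaptic subunit that is also found on the axon initial segment, measured 12.25, 15 and 15.15 FPKM in OGD, against 22.8, 24.26 and 26.03 FPKM in control. Its log2 change was -0.86 ± 0.11, which is 1.82-fold lower (adjusted p = 9.43e-06). Its OGD libraries all lay below control and above those of every other member.

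The beta subunits parted. Gabrb2, the beta subunit most common in adult brain, measured 2.1, 1.73 and 2.87 FPKM in OGD, against 16.12, 17.59 and 17.62 FPKM in control, and fell by 3.04 ± 0.17 on the log2 scale (adjusted p = 4.13e-09). Gabrb1 measured 10.65, 9.12 and 9.99 FPKM in OGD, against 7.54, 9.71 and 8.31 FPKM in control, so that its groups overlapped. Its log2 change was 0.13 ± 0.14 with a 95% interval of -0.17 to 0.44 (adjusted p = 0.404). In the authors' deposited table the false discovery rate of Gabrb1 for OGD over control was 0.454, and the largest among the other 6 members was 1.57e-10.

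Gabrd, the delta subunit of tonic, highly GABA-sensitive receptors, was nearly lost. It had 5, 3 and 1 counts in OGD replicates 1 to 3, against 189, 141 and 196 counts in control. In FPKM this was 0.2, 0.08 and 0.04 in OGD, against 5.24, 5.04 and 4.36 in control. Its fitted log2 change was -5.69 ± 0.41 (adjusted p = 4.74e-08). Summed over libraries and per total count, the level in OGD was 1.99% of control, with an exact Clopper-Pearson interval of 0.904% to 3.80% that covers counting error only. The size of so low a value hangs on its handling: the fitted change was -6.38 without OGD replicate 1, and on the scale of log2(FPKM + 1) it was -2.41. Without that replicate the other changes were -0.75 for Gabra2, -3.11 for Gabra3, -1.04 for Gabra4, -4.42 for Gabra5, 0.07 for Gabrb1 and -3.02 for Gabrb2, and the same 6 members were called.

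**Figure D2:**
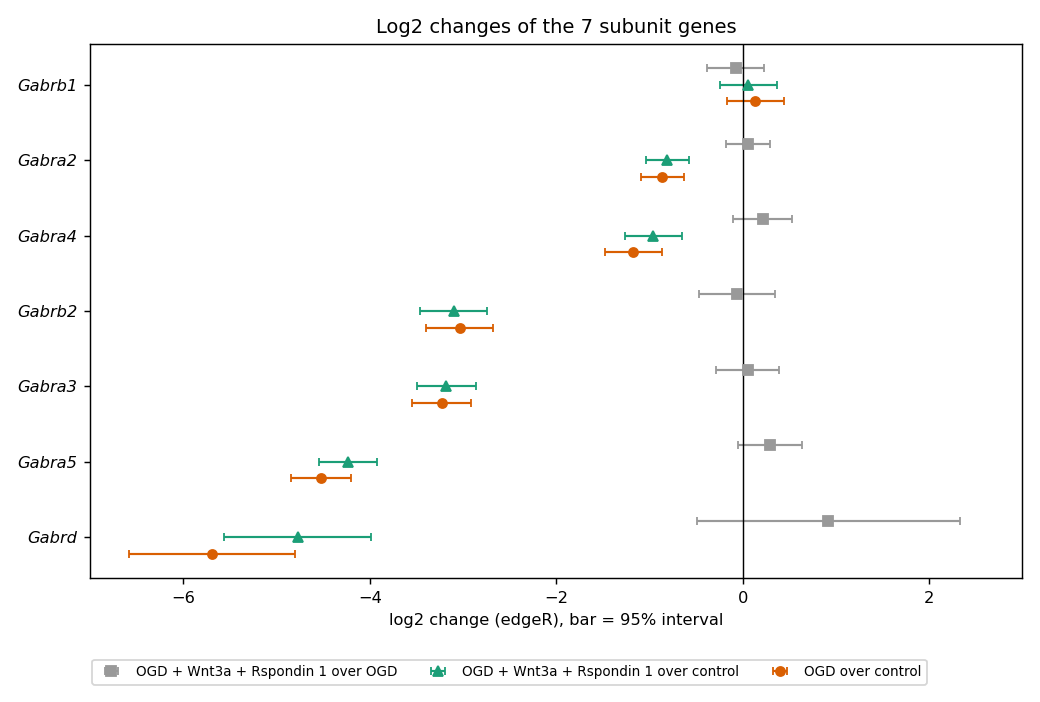
Log2 changes of the 7 members with 95% intervals from edgeR, for OGD over control, OGD with Wnt3a plus Rspondin 1 over control, and OGD with Wnt3a plus Rspondin 1 over OGD. The changes over control run from -5.69 for Gabrd to 0.13 for Gabrb1, and the 7 intervals for the proteins over OGD all include 0.

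The makeup of the subunit RNA differed between OGD and control. Summed FPKM of the 7 genes was 36.9 ± 3.23 with OGD and Wnt3a plus Rspondin 1 and 34.9 ± 2.81 in OGD, against 149 ± 6.69 in control, which is 4.28-fold higher in control than in OGD. Of the summed FPKM of Gabra2 to Gabra5, Gabra5 held 14.5% ± 0.781 with OGD and Wnt3a plus Rspondin 1 and 12.9% ± 1.83 in OGD, against 53.6% ± 1.38 in control. The share of Gabra2 was 60.2% ± 2.12 with OGD and Wnt3a plus Rspondin 1 and 62.5% ± 1.46 in OGD, against 20.5% ± 0.366 in control. A repertoire led by alpha 5 in control thus stood beside one led by alpha 2 after OGD. Gabra3 held 11.9% ± 1.14 with OGD and Wnt3a plus Rspondin 1 and 12.2% ± 1.47 in OGD, against 20.9% ± 1.82 in control. Gabra4 held 13.4% ± 0.240 with OGD and Wnt3a plus Rspondin 1 and 12.5% ± 2.19 in OGD, against 5.10% ± 0.220 in control. Of the summed FPKM of the 2 beta genes, Gabrb1 made up 81.4% ± 2.28 with OGD and Wnt3a plus Rspondin 1 and 81.8% ± 3.54 in OGD, against 33.2% ± 2.09 in control.

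**Figure D3:**
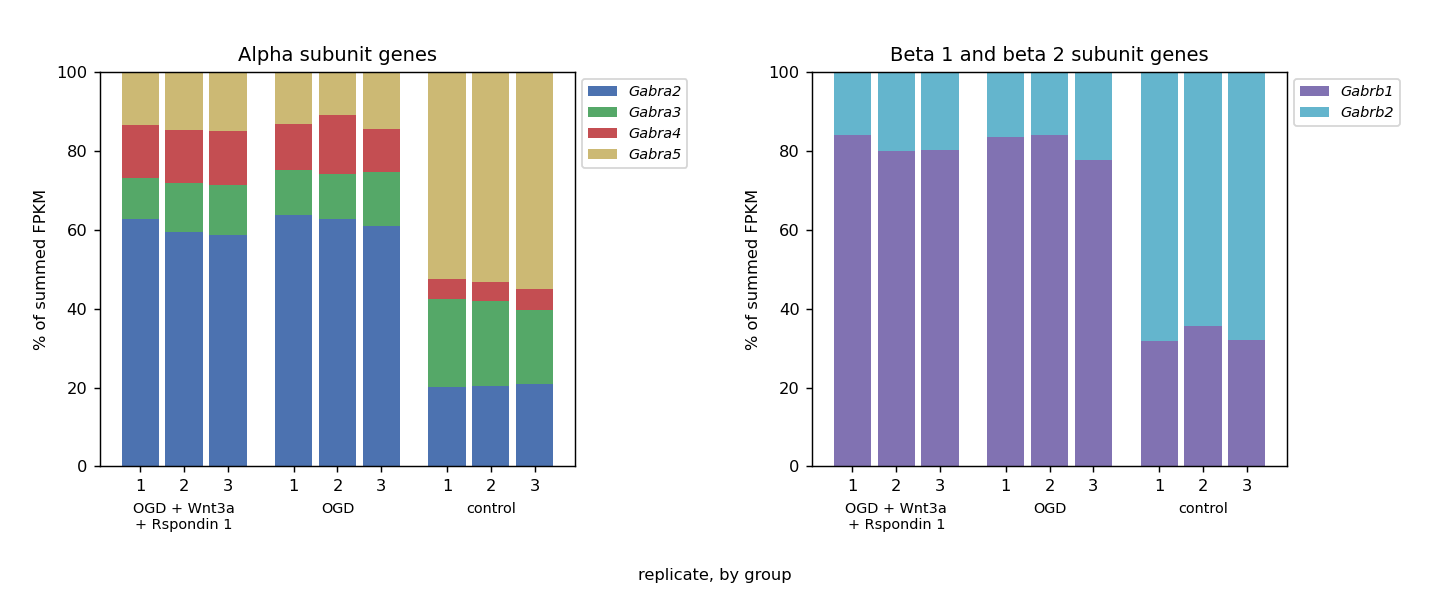
Share of each gene in the summed FPKM of the 4 alpha genes (left) and of the 2 beta genes (right), in percent, for each library by group. Gabra2 makes up 58.6% to 63.7% of the alpha sum in the 6 OGD libraries and 20.1% to 20.9% in control, and Gabrb1 makes up 77.7% to 84.1% of the beta sum in the 6 OGD libraries and 31.9% to 35.6% in control.

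Ratios within a library, which do not depend on library scaling, were compared as well. The log2 ratio of Gabra5 to Gabra2 in FPKM averaged -2.29 ± 0.229 in OGD and 1.39 ± 0.0114 in control. Gabrb2 to Gabrb1 averaged -2.18 ± 0.331 in OGD and 1.01 ± 0.135 in control. The ratio of Gabrd to Gabra4, partners in forebrain receptors, averaged -5.02 ± 1.34 in OGD and -0.32 ± 0.232 in control. For each of the 3 ratios the libraries did not overlap, and the exact two-sided permutation p was 0.1, the smallest that 3 against 3 allows (0.15 after Benjamini-Hochberg adjustment over 9 tests). The wide SD of Gabrd to Gabra4 in OGD goes with Gabrd counts of 1 to 5.

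The members were also set against neuronal RNA as a description, without a test. Per 1000 summed counts of the 12 neuron markers, Gabra5 stood at 4.36 ± 0.344 in OGD, against 20.2 ± 1.50 in control, a 0.216-fold value. Gabrd (0.108-fold, OGD over control), Gabra3 (0.530-fold) and Gabrb2 (0.613-fold) were also lower on this scale. Gabra5, Gabrd, Gabra3 and Gabrb2 thus fell by more than the summed neuron markers did. Single neuron markers changed by -3.72 (Syt1) to -1.58 (Map2) on the log2 scale. Gabra3 (-3.23) and Gabrb2 (-3.04) lay inside that range, and Gabra5 and Gabrd below it. The other 3 were higher on this scale. Gabrb1 stood at 11.7 ± 2.36 in OGD, against 2.09 ± 0.319 in control, a 5.60-fold difference, Gabra2 at 17.0 ± 2.49 in OGD, against 6.14 ± 0.417 in control, and Gabra4 at 7.65 ± 2.25 in OGD, against 3.40 ± 0.171 in control. With the 9 excitatory neuron markers as the denominator, the directions of the group means were the same for all 7. Gabra3 at 0.777-fold and Gabrb2 at 0.896-fold came closer to control, and the Gabrb2 libraries of OGD and control overlapped. All 10 astrocyte markers rose with OGD (median log2 change 1.35), as did all 7 microglia markers tested (2.16), while all 12 neuron markers (-2.50), all 9 excitatory markers (-2.44) and 9 of 10 inhibitory markers (-2.37) fell. The microglia markers summed to 59.9 to 63.9 CPM with OGD and Wnt3a plus Rspondin 1 and 50.6 to 67.6 CPM in OGD, against 20.2 to 26.0 CPM in control. Of the oligodendrocyte lineage markers 6 rose and 3 fell, of the progenitor markers 6 rose and 1 fell, and of the endothelial markers both tested rose while Cldn5 was listed at 0 in every library. Transcripts of Gabra2, Gabrb1 and Gabrg1 are also known from rodent astrocytes. The part of these shifts in the subunit levels was not tested.

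**Figure D4:**
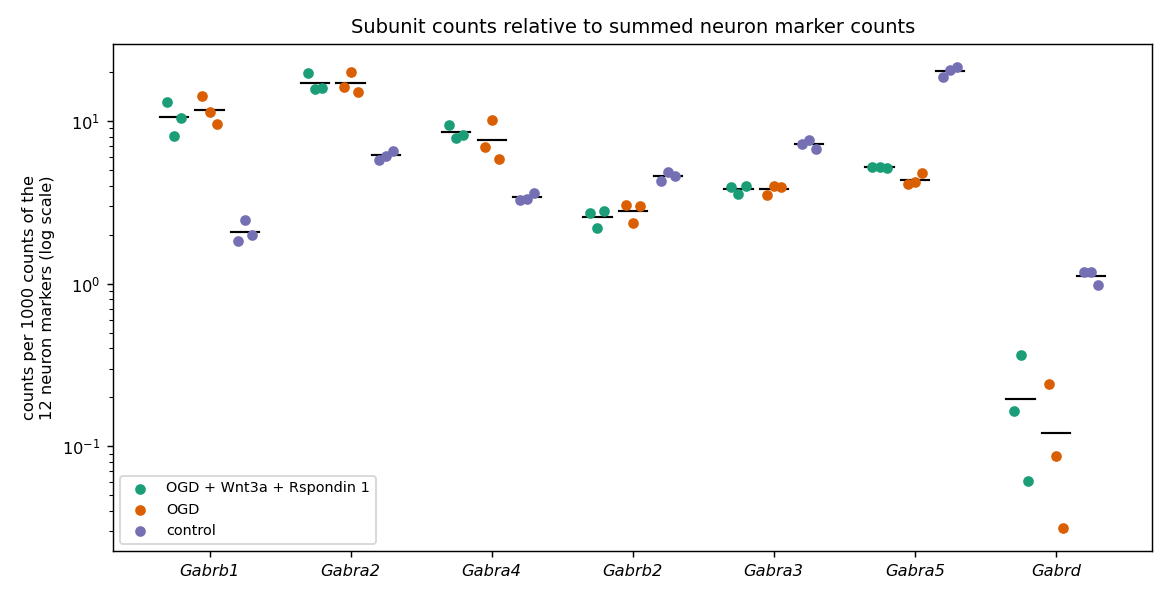
Counts of each member per 1000 summed counts of the 12 neuron markers, per library on a log axis, with group means as bars (n = 3). Gabrb1, Gabra2 and Gabra4 lie higher in the 6 OGD libraries than in control, and Gabrb2, Gabra3, Gabra5 and Gabrd lie lower.

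Wnt3a plus Rspondin 1 was added to see what the proteins change in neurons under OGD, and set against OGD alone. None of the 7 members changed by edgeR's test, against 27 of 13693 genes (0.197%) over the whole table. In this fit no member reached an unadjusted p under 0.05 either, while 784 genes (5.73%) did. DESeq2 and limma also called 0 members. The groups overlapped for all 7, while 9.57% of tested genes did not overlap. Gabra5 measured 3.33, 3.52 and 4.03 FPKM with Wnt3a plus Rspondin 1, against 2.53, 2.61 and 3.62 FPKM in OGD. Its log2 change of 0.29 had a 95% interval of -0.05 to 0.63 (adjusted p = 0.952). Gabra4 measured 3.24, 3.19 and 3.66 FPKM with the proteins, against 2.27, 3.57 and 2.67 FPKM in OGD, with a log2 change of 0.21 and an interval of -0.10 to 0.53. For both, the highest OGD library lay inside the range of the treated ones.

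The bounds for the others were similar. Gabra2 measured 15.34, 14.18 and 15.66 FPKM with Wnt3a plus Rspondin 1 (log2 change over OGD 0.05, interval -0.18 to 0.29). Gabra3 measured 2.59, 2.97 and 3.38 FPKM with the proteins (0.05, -0.29 to 0.39). Libraries of both groups were interleaved for both genes. Gabrb1 measured 10.35, 7.54 and 10.66 FPKM (-0.08, -0.38 to 0.23), with replicate 2 the lowest of all OGD libraries. Gabrb2 measured 1.96, 1.88 and 2.63 FPKM (-0.06, -0.47 to 0.34). The adjusted p of the 7 members lay between 0.952 and 0.989. Gabrd had 5, 11 and 2 counts with Wnt3a plus Rspondin 1, against 5, 3 and 1 counts in OGD, which is 0.14, 0.36 and 0.07 FPKM with the proteins, against 0.2, 0.08 and 0.04 FPKM in OGD. Its log2 change was 0.92, and the interval of -0.49 to 2.33 leaves a wide range of changes undetectable at this depth. It was 1.61 without OGD replicate 1, 0.12 without replicate 2 of the treated group, and between those values without any other library. In the authors' deposited table every member had a false discovery rate of 1 for this comparison. The ratios between subunits did not separate either: the difference in log2 ratio was 0.23 for Gabra5 to Gabra2 (exact permutation p = 0.2), 0.04 for Gabrb2 to Gabrb1 (p = 1) and 0.55 for Gabrd to Gabra4 (p = 0.6).

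Set against control, the group with OGD and Wnt3a plus Rspondin 1 had the same 6 members called lower and Gabrb1 not called, where 36% of all tested genes were called lower and 72.6% in either direction. This comparison shares its control libraries with the one above. The log2 changes were -4.78 for Gabrd, -4.23 for Gabra5, -3.18 for Gabra3, -3.10 for Gabrb2, -0.96 for Gabra4 and -0.81 for Gabra2, and 0.06 for Gabrb1 (adjusted p = 0.725). Gabrd in this group summed to 18 counts, 3.89% of control per total count with an exact interval of 2.29% to 6.20%. Of these, 11 came from replicate 2, and without that library the fitted log2 change of Gabrd was -5.57. On the scale of log2(FPKM + 1) it was -2.31.

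Of the 12 other GABA-A subunit genes listed in the tables, 7 had enough counts to test in OGD against control. Of these, 6 fell, by between 1.57 and 4.99 on the log2 scale, and 1 rose. Over all tested genes, 36.8% were called lower and 73.1% in either direction. The gene that rose was Gabrg1, which encodes gamma 1, a subunit that gives receptors little sensitivity to classical benzodiazepines. It measured 46.38, 62.79 and 64.27 FPKM in OGD, against 14.03, 15.31 and 17.9 FPKM in control, a log2 change of 1.79 ± 0.13 (adjusted p = 3.72e-08). In OGD it thus stood above every one of the 7 members in FPKM. The theta gene Gabrq had the largest fall of the 6 at -4.99 ± 0.68, at 0.07, 0 and 0.03 FPKM in OGD, against 0.83, 1.11 and 1.11 FPKM in control. Gabrg3 (-2.51 ± 0.27) and the rho gene Gabrr2 (-1.57 ± 0.44) also fell. For Wnt3a plus Rspondin 1 against OGD, the smallest adjusted p among these 7 was 0.952, for Gabrr2.

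Gabrb1, Gabra2 and Gabra4, the members with the smallest changes, are neighbours. In the gene order of the RefSeq assembly, Gabrb1, Gabra4, Gabra2 and Gabrg1 follow one another with Cox7b2 the sole other protein-coding gene among them. Their log2 changes in OGD over control were 0.13, -1.17, -0.86 and 1.79. The other tested subunit genes grouped with Gabra5, Gabrb2 or Gabra3 changed by -2.51 to -4.99, and Gabrd has no subunit gene beside it. This grouping was noticed after the values had been seen and was not tested.

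Other genes of inhibitory transmission are counted here for OGD against control, where 36.8% of all tested genes were called lower and 73.1% in either direction, and their changes are given on the log2 scale with their SE. Of 20 tested genes for anchoring, assembly and trafficking of GABA-A receptors, 14 fell and 2 rose, with a median log2 change of -0.65, against 0.02 over all tested genes. Iqsec3, an exchange factor of inhibitory synapses, fell by 2.80 ± 0.11, and Gphn, which encodes the scaffold protein gephyrin, fell by 0.47 ± 0.07. Nlgn2, the adhesion protein of inhibitory synapses, fell by 1.01 ± 0.09, and Lhfpl4 and Shisa7, auxiliary proteins of the receptor, fell by 1.52 ± 0.16 and 1.50 ± 0.08. Gabarap, which binds gamma subunits and also serves autophagy, and Clptm1, which holds receptors back in the endoplasmic reticulum, rose by 0.56 ± 0.07 and 0.42 ± 0.08. Of 7 genes that set the chloride gradient, 4 fell and 2 rose. Slc12a5, the chloride extruder KCC2 of mature neurons, measured 3.97, 3.68 and 4.72 FPKM in OGD, against 53.88, 51.22 and 50.53 FPKM in control, and fell by 3.74 ± 0.13 (adjusted p = 2.52e-10). The chloride loader Slc12a2 (NKCC1) was called higher by 0.22 ± 0.09 (adjusted p = 0.0425), with libraries that overlapped.

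Of 7 tested genes of GABA synthesis, packaging, uptake and breakdown, 5 fell and 2 rose with OGD. The vesicular transporter gene Slc32a1 fell by 3.15 ± 0.13, and the synthesizing enzyme genes Gad2 and Gad1 fell by 2.98 ± 0.11 and 1.14 ± 0.09, while Abat, which breaks GABA down, rose by 0.85 ± 0.10. Both GABA-B receptor genes fell, Gabbr2 by 1.50 ± 0.09 and Gabbr1 by 0.41 ± 0.07. Glutamate receptor genes fell too. Of 7 NMDA receptor genes 6 fell and 1 rose (median -2.76), with Grin2a at -3.72 ± 0.25 and Grin2c at 1.28 ± 0.23. Of 9 AMPA and kainate receptor genes 8 fell and 1 rose (median -1.12), and both tested glycine receptor genes fell. For Wnt3a plus Rspondin 1 against OGD, the smallest adjusted p in these lists was 0.0722, for Gabbr2 (log2 change -0.44 ± 0.09).

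For each member, the 2 genes with the most similar profile over the 9 libraries were found by the root-mean-square difference of mean-centred log2 CPM, a smaller value being a closer match. Those for Gabra2 were Kif2a (0.0469) and Dnm1l (0.0471), and those for Gabrb1 were Rfx3 (0.0486) and Zfp507 (0.0577). Gabra3 lay nearest to Trank1 (0.0636) and Slc4a10 (0.112), and Gabrb2 to Kcnq3 (0.0950) and Prkcb (0.106). Slc30a4 (0.109) and Daam1 (0.114) came closest to Gabra4, and Myo5b (0.159) and Rgs4 (0.161) to Gabra5. Gabrd had no close match, with Adra1d at 0.614 and Usp43 at 0.627. It had only 1 to 11 counts in the OGD libraries, so counting noise widens its difference to any gene. With 3 control libraries far from the other 6, a small difference says mainly that a gene changed by a similar amount.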

How the data were processed

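Illumina TruSeq libraries were prepared from total RNA (1 µg), per the labels. Bowtie 0.12.2 and mouse builds (mm8, mm9) stand in the submitters' processing notes, though the samples are rat. The aligner, rat build, annotation, counter and strand setting behind the tables are not given in the sources used here. The authors deposited whole-number counts per gene, not normalized, and FPKM values, per the file headers. They also deposited log2 fold changes and p-values with false discovery rates, from a test not given in the sources used here. The 18 library columns were identical in both tables that hold them. Columns named V and WR were matched by letter and number to the sample titles V and RW, and 0 columns were left unmapped.

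The count analysis used R 4.3.3 and edgeR 4.0.16: TMM scaling (0.943 to 1.033), filterByExpr (minimum count 10, minimum total 15), and a robust quasi-likelihood fit of 3 group means over all 9 libraries (6 residual degrees of freedom, common biological coefficient of variation 10.3%). P-values were adjusted over 13693 tested genes, with a threshold of 0.05. Standard errors come from the F statistic. FPKM and CPM are means ± SD of 3 libraries, and shares, ratios and marker sums were computed per library. The gene length implied by count and FPKM differed between libraries by at most 1.13-fold for any member. Alternatives were RLE factors, library totals, no count filter, only the 6 libraries compared, DESeq2 1.42.0, limma 3.58.1 on log2 FPKM, a replicate block and leaving out each library. The fit was tested on simulated data. Replicates all differed by more than sampling noise, with a chi-square of 3.60 to 28.4 per degree of freedom.

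All 7 members were named, then the list genes with extreme changes or the smallest adjusted p, further genes of the lists chosen after their values were seen, and other receptor subunits. Some genes that this rule gives are not reported here. The members, gene lists and tests were chosen with earlier results of these data known.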

Additional observations from a re-analysis of the deposited data

How the results depend on the processing

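The calls of the members did not depend on the settings tried: 6 members were called for OGD against control, 0 for Wnt3a plus Rspondin 1 against OGD and 6 for OGD with Wnt3a plus Rspondin 1 against control under all 17 alternatives. The number of genes called over the whole table ran from 9438 to 10301 for OGD against control and from 9341 to 10601 for OGD with Wnt3a plus Rspondin 1 against control. For Wnt3a plus Rspondin 1 against OGD, the 27 genes became 15 with only the 6 libraries compared, 99 with DESeq2 and 65 with the replicate block. Leaving out 1 library gave 12 to 49, with 49 without OGD replicate 1, 13 without OGD replicate 2, and 12 and 17 without replicates 2 and 3 of OGD with Wnt3a plus Rspondin 1. The block changed no call of the 7 members, and its calls were not tabulated for the other genes named. The deviations of same-numbered libraries from their group means correlated at -0.0688 to 0.273 over 9 pairs, against -0.319 to 0.278 over 18 pairs with different numbers. Between OGD with Wnt3a plus Rspondin 1 and OGD, same-numbered pairs lay at 0.0734 to 0.267 and the others at -0.238 to -0.0236. A library correlated best with its own number in 11 of 18 cases. This is a hint of pairing in the data that the labels do not state. The main fit followed the labels and treated the libraries as unpaired.

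Where a member's change was near 0, leaving out 1 library could turn its sign. For Wnt3a plus Rspondin 1 against OGD the log2 change ran from -0.0561 to 0.124 for Gabra2, from -0.0713 to 0.217 for Gabra3, from -0.161 to 0.0640 for Gabrb1 and from -0.238 to 0.149 for Gabrb2. The difference in log2 ratio ran from -0.0703 to 0.229 for Gabrb2 to Gabrb1 and from -0.11 to 1.31 for Gabrd to Gabra4. For Gabrb1 in OGD with Wnt3a plus Rspondin 1 against control the log2 change ran from -0.0147 to 0.201. Gabra5 and Gabra4 kept a positive change for Wnt3a plus Rspondin 1 against OGD under all 17 alternatives. It ran from 0.191 to 0.509 for Gabra5 and from 0.0840 to 0.424 for Gabra4. Their smallest adjusted p was 0.285 and 0.416, both from edgeR with 1 OGD library left out. With the replicate block Gabra5 stood at 0.304 ± 0.117 (SE, adjusted p = 0.521). Unadjusted p-values of the members were not tabulated for the alternatives. With excitatory neuron markers as the denominator, the log2 value of members per neuron marker count, OGD over control, was 2.04 for Gabra2, -0.36 for Gabra3, 1.74 for Gabra4, -1.66 for Gabra5, 3.05 for Gabrb1 and -0.16 for Gabrb2, against 1.47, -0.92, 1.17, -2.21, 2.48 and -0.71 with all neuron markers; the cause was not tested. Scaling by library totals moved the median of all genes to 0.10 for OGD against control and to 0.14 for OGD with Wnt3a plus Rspondin 1 against control. Gabrd gave no value for Wnt3a plus Rspondin 1 against OGD with only those 6 libraries, where it had too few counts, so a small change of Gabrd between them cannot be seen at this depth.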
